A study of Mus musculus with 9 samples.

Results

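To investigate how the genes for TNF, its relatives and their receptors were expressed in the liver after CD40 activation, 10 genes were read from a table of liver mRNA levels. They were chosen by name and role, with earlier results of these data known. The 10 are the ligands Tnf, Lta, Ltb, Fasl and Tnfsf10, and the receptors Tnfrsf1a, Tnfrsf1b, Ltbr, Fas and Tnfrsf10b. All 10 were found among the 24341 gene names of the table. The livers came from 9 wild-type C57BL/6 mice and were collected 48 hours after treatment. Of these mice, 3 received FGK45, an agonist antibody against CD40 (anti-CD40, mice 2, 5 and 9), and 6 received PBS (control, mice 3, 4, 7, 8, 11 and 12). The labels give neither age nor sex, and the study's methods describe sex-matched young adult animals. Those methods also left out anti-CD40 mice whose circulating B cells did not fall, and whether this applied to the animals sequenced is not stated.

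TNF is an inflammatory cytokine made mainly by macrophages, T cells and NK cells. It binds TNFR1 (Tnfrsf1a), which carries a death domain, and TNFR2 (Tnfrsf1b), which does not. Lymphotoxin-alpha (Lta) can bind the same receptors as a homotrimer, and together with lymphotoxin-beta (Ltb) it forms a membrane complex that binds the lymphotoxin-beta receptor (Ltbr). FasL (Fasl) and TRAIL (Tnfsf10) are ligands of the death receptors Fas and, in mice, Tnfrsf10b. In liver, TNFR1 can signal survival through NF-kB or death through caspase-8 and RIPK3, and hepatocytes are sensitive to Fas ligation.

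Levels are FPKM, the reads of a gene divided by its length and by the size of the library, in which 0.01 is the lowest value listed. Libraries were made from the 3′ ends of transcripts, so dividing by length does not fully place different genes on 1 scale. Between 14684 and 15545 genes lay above 0.01 in each mouse. The acute-phase genes Saa1, Saa2 and Saa3 took 25.4% to 25.9% of summed FPKM in anti-CD40 mice and 0.0449% to 0.38% in control mice. Because this share differed between the groups, the comparison was repeated with these 3 genes left out and the rest rescaled, which raised the median log2 fold change over all genes from 0.0056 to 0.35. Hepatocyte markers, including Alb, had the highest summed FPKM of the cell type lists in every mouse.

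Of the 10 genes, 8 were higher in anti-CD40 mice with an adjusted p under 0.05 (limma on log2(FPKM + 0.1), Benjamini-Hochberg over 13807 genes), 0 were lower and 2 did not pass. The 8 were Tnf, Lta, Ltb, Fasl, Tnfrsf1a, Tnfrsf1b, Fas and Tnfrsf10b, and the other two were Tnfsf10 and Ltbr. Among all genes tested, 23.5% were called higher, 21.7% lower and 45.1% either way, so a change in either direction was common in these livers. With the Saa genes left out, 5592 genes were higher and 1649 lower, in place of 3240 and 2990. The same 8 genes lay above all 6 control mice in each of the 3 anti-CD40 mice, as did 22.7% of all genes, and none of the 10 lay below all control mice, as 19.6% of all genes did. All 10 genes had a mean of at least 0.1 FPKM, but Lta, Ltb and Tnfrsf10b did so only through the anti-CD40 mice. In whole liver, more cells of a type and more RNA per cell cannot be told apart.

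**Figure D1:**
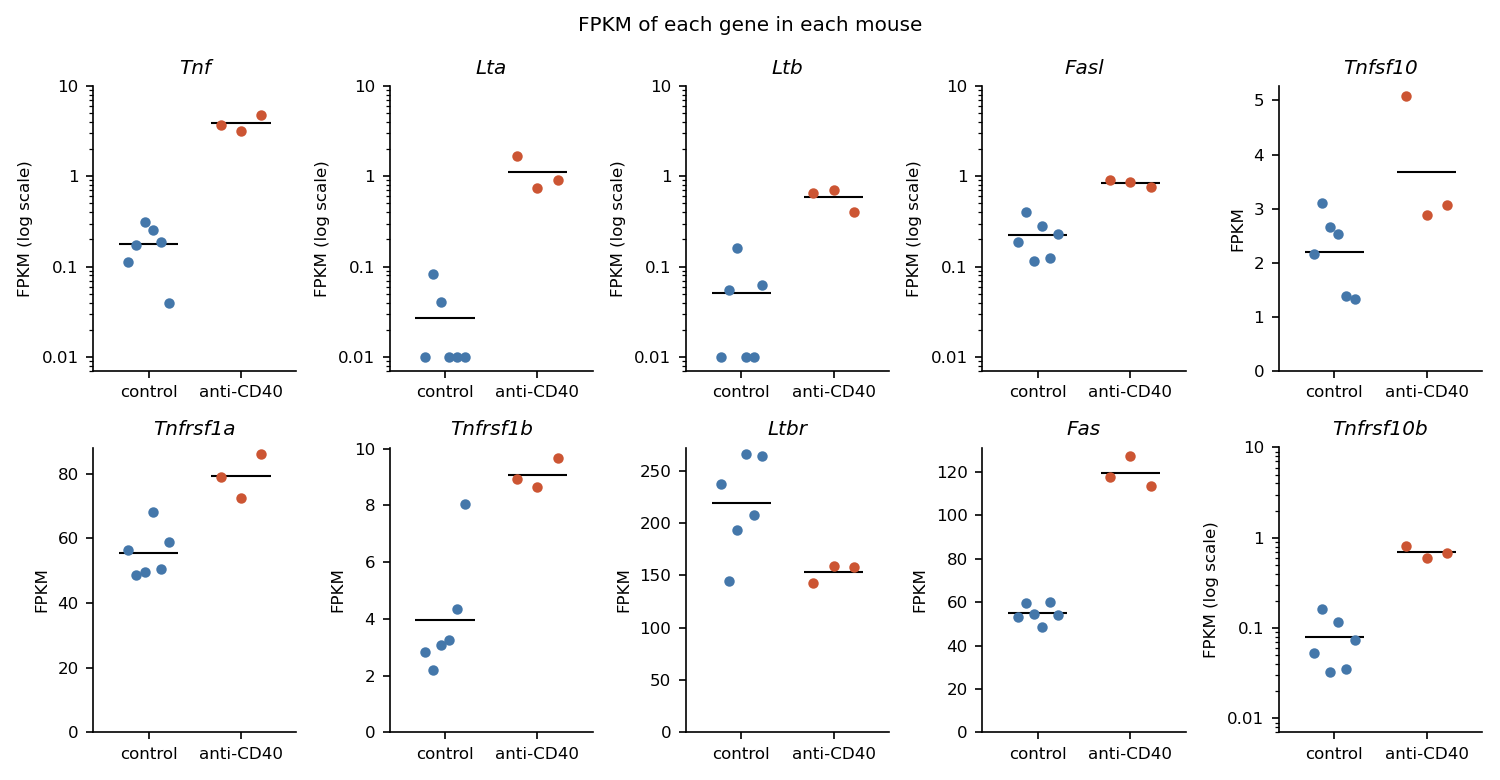
FPKM of the 10 genes in each mouse, for 3 anti-CD40 and 6 control mice. Tnf, Lta, Ltb, Fasl and Tnfrsf10b are on a log axis, and the other genes are on a linear axis. The groups overlapped for Tnfsf10 and Ltbr and lay apart for the other genes.

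All 3 TNF and lymphotoxin ligands rose. Their genes neighbor each other in the class III region of the major histocompatibility complex. On mm10, the table places Ltb at chr17:35194507-35196305, Tnf at chr17:35199367-35202007 and Lta at chr17:35203165-35205351. Ltb and Tnf are separated by 3061 bases and Tnf and Lta by 1157 bases. Tnf and Lta are read from the minus strand and Ltb from the plus strand. The table lists the microRNA genes Mir6974 within Lta and Mir6973a within Ltb as rows of their own, so the values of these overlapping genes carry that uncertainty.

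Tnf was measured at 3.67, 3.19 and 4.82 FPKM in the anti-CD40 mice, and at 0.0396 at the lowest, 0.181 at the median and 0.31 at the highest in the control mice. Every anti-CD40 mouse was thus over 10 times above the highest control mouse. The means were 3.89 ± 0.838 (SD, n = 3) and 0.179 ± 0.0963 FPKM (SD, n = 6), a 21.7-fold difference. On the log2(FPKM + 0.1) scale, which understates changes of genes at low level, Tnf was higher by 3.90 (SE 0.319, limma adjusted p = 7.21e-06). By this measure Tnf was number 108 of the 13807 genes tested. The steps between low FPKM values gave back whole reads, the smallest that could be fitted being 114, 93 and 131 in anti-CD40 mice and 1 to 9 in control mice. The ratio of reads at equal depth was 21.4 (95% interval 14.6 to 32.4, counting error only). This interval, and those given with reads for other genes, pools the reads of each group and leaves out variation between mice.

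Lta was at 1.69, 0.733 and 0.919 FPKM in the anti-CD40 mice. In 4 of 6 control mice it was listed at 0.01, and the highest control value was 0.0823. The groups did not overlap, although anti-CD40 mouse 2 held more than the other two. Lta was higher by 3.20 (SE 0.288, limma adjusted p = 1.3e-05). This rested on 83 reads in anti-CD40 mice and 3 in control mice, a ratio of 50.7 with a wide counting interval of 16.8 to 251.

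Ltb was at 0.66, 0.702 and 0.406 FPKM in the anti-CD40 mice. In control mice it was listed at 0.01 in 3, had a median of 0.0323 and reached 0.163 in mouse 7. Every anti-CD40 mouse lay above this highest control. Ltb was higher by 2.23 (SE 0.322, limma adjusted p = 0.000284), from 33 reads against 5 (ratio 12.1, interval 4.69 to 39.7). Whether Tnf and Ltb moved by different amounts was tested within each mouse. There, Ltb minus Tnf in log2(FPKM + 0.1) was -2.54 ± 0.655 (SD, n = 3) in anti-CD40 mice and -0.877 ± 0.658 (SD, n = 6) in control mice (2-sided exact permutation p = 0.0238, adjusted over 3 such differences 0.0357). The p of 0.0238 is the smallest that 84 splits of the mice can give. With a pseudocount of 0.01 the difference was -0.808 (exact p = 0.476), which did not pass. The pseudocount of 0.1 exceeds the Ltb value of every control mouse except mouse 7, so the size of this difference depends on it. The read ratio of Ltb had a counting interval that overlapped that of Tnf (14.6 to 32.4).

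The 250 bases before the RefSeq start sites of these 3 genes are shown because they rose together from 1 locus. Letters were searched on both strands for the kappaB-type motif (GGGA and CC with any 4 bases between), the interferon response motif (GAAA and GAAA with any 2 bases between), TTCNNNGAA (STAT-type), TGANTCA (AP-1-type) and TATAAA, and matches stand in capitals. The build is GRCm38.p6, and the windows are chr17:35202008-35202257 (minus strand) for Tnf, chr17:35205352-35205601 (minus strand) for Lta and chr17:35194257-35194506 (plus strand) for Ltb.
Tnf: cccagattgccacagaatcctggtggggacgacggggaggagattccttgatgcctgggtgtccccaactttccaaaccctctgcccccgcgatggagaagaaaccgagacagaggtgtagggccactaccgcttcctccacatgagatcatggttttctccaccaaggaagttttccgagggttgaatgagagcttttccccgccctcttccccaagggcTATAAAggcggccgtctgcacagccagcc
Lta: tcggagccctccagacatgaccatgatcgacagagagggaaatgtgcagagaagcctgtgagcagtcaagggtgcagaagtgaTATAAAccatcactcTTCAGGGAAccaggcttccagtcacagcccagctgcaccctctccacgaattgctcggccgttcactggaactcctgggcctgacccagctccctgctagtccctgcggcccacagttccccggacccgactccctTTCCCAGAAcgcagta
Ltb: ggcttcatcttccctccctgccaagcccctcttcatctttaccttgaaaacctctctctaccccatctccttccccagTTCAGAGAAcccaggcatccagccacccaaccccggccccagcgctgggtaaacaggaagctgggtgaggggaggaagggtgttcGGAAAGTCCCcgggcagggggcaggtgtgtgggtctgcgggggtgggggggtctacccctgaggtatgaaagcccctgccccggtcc
Tnf held TATAAA from -29 to -24 relative to its start, and a kappaB-type match, GGGACTAGCC, lay past the start, at bases 30 to 39 and outside the window shown. Lta held TATAAA farther from its start, from -167 to -162, and 2 STAT-type matches. Ltb held 1 STAT-type match and the kappaB-type match GGAAAGTCCC, on the minus strand, from -87 to -78 relative to the start. Over windows of 300 bases, 20.7% of 32851 promoters held the kappaB-type letters, 8.3% the STAT-type letters and 13.6% TATAAA, so these matches are a description and not evidence of binding.

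Of the death ligands, Fasl rose and Tnfsf10 did not pass. Fasl, on the minus strand at chr1:161780692-161788495, encodes the ligand used by cytotoxic T cells and NK cells. It was at 0.911, 0.855 and 0.765 FPKM in anti-CD40 mice and at 0.115, 0.209 and 0.403 as the lowest, median and highest of the control mice. The groups lay apart, and mouse 4 was the highest control. Fasl was higher by 1.61 (SE 0.276, limma adjusted p = 0.00087), with 89 reads against 43 (ratio 3.79, interval 2.61 to 5.6).

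Tnfsf10 (TRAIL, chr3:27317077-27339665, plus strand) was at 5.08, 2.88 and 3.06 FPKM in anti-CD40 mice and at 1.32, 2.35 and 3.09 as the lowest, median and highest of the control mice. The groups overlapped, since control mouse 4 exceeded anti-CD40 mice 5 and 9. The log2 difference of 0.74 (95% interval 0.0817 to 1.39) missed the threshold (limma adjusted p = 0.0646, exact permutation p = 0.0714). It passed without control mouse 4 (0.85, limma adjusted p = 0.0331) and with the Saa genes left out (1.09, limma adjusted p = 0.0123). Without anti-CD40 mouse 2 it was 0.49 (limma adjusted p = 0.278).

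The TNF and lymphotoxin receptors were at higher FPKM than Tnf, Lta and Ltb in every mouse. Both TNF receptors rose, and Ltbr did not pass. Tnfrsf1a was at 79.0, 72.6 and 86.2 FPKM in anti-CD40 mice and at 48.8, 53.4 and 68.2 as the lowest, median and highest of the control mice. The lowest anti-CD40 mouse was only slightly above the highest control, mouse 8. The means were 79.3 ± 6.80 (SD, n = 3) and 55.4 ± 7.45 FPKM (SD, n = 6), a 1.43-fold difference (log2 0.52, SE 0.128, limma adjusted p = 0.00698).

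Tnfrsf1b, which encodes TNFR2 and is found mostly on leukocytes and endothelium, lies at chr4:145212368-145246870 on the minus strand. It was at 8.95, 8.65 and 9.67 FPKM in anti-CD40 mice and at 2.21, 3.18 and 8.06 as the lowest, median and highest of the control mice. The anti-CD40 mice were tightly grouped, whereas control mouse 12 lay close to them and far from the other controls. The means differed 2.29-fold (log2 1.31, SE 0.328, limma adjusted p = 0.00821), and without control mouse 12 the log2 difference was 1.53 (limma adjusted p = 0.000205). Whether TNFR2 rose further than TNFR1 was tested within each mouse. Tnfrsf1b minus Tnfrsf1a in log2(FPKM + 0.1) was -3.11 ± 0.0471 (SD, n = 3) in anti-CD40 mice and -3.89 ± 0.607 (SD, n = 6) in control mice, a difference of 0.78 that missed the threshold (exact permutation p = 0.0952). Without control mouse 12, the only control not below every anti-CD40 mouse, it was 0.99 (exact permutation p = 0.0357). That p is the smallest the remaining mice can give and was not adjusted over the differences tested.

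Ltbr is expressed by parenchymal and stromal cells and activates the alternative NF-kB pathway. It had the highest mean FPKM of the 10 genes in both groups. Its values were 143, 159 and 158 FPKM in anti-CD40 mice and 145, 223 and 266 as the lowest, median and highest of the control mice. The anti-CD40 mean was 69.9% of the control mean, but control mouse 4 lay within the anti-CD40 range. The log2 difference of -0.49 (95% interval -0.899 to -0.0776) missed the threshold (limma adjusted p = 0.0529). It passed without control mouse 4 (-0.60, limma adjusted p = 0.00385). With the Saa genes left out it was -0.12 (limma adjusted p = 0.554), and with quantile normalization -0.03 (limma adjusted p = 0.879).

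Ltbr (chr6:125306571-125313870, minus strand) and Tnfrsf1a (chr6:125349723-125362483, plus strand) lie 35852 bases apart, and their upstream windows are shown because 1 of these neighbors rose and the other did not pass. The windows are chr6:125349473-125349722 (plus strand) for Tnfrsf1a and chr6:125313886-125314135 (minus strand) for Ltbr.
Tnfrsf1a: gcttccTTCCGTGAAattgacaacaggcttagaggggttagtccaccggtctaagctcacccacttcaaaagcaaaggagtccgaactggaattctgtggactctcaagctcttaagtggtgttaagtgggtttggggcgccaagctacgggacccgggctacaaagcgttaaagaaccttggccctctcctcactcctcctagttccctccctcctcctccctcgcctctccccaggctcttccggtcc
Ltbr: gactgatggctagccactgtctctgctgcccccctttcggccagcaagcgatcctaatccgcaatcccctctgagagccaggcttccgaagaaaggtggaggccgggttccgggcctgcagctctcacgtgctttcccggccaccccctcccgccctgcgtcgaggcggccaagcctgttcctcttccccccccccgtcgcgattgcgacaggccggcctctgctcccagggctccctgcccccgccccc
Tnfrsf1a held 1 STAT-type match, and none of the 5 searched motifs was found for Ltbr. None was found either for Fasl, which rose, or for Tnfsf10, which did not pass. Tnfrsf1b held a STAT-type and an interferon response match, and Fas a STAT-type and an AP-1-type match. Of all promoters, 8.3% held the STAT-type, 3.44% the interferon response and 7.81% the AP-1-type letters. These matches are likewise a description only, and their relation to the changes was not tested. Promoter windows were matched for 9 of the 10 genes.

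Both death receptors rose. Fas (chr19:34290659-34327770, plus strand) was at 118, 127 and 114 FPKM in anti-CD40 mice and at 48.5, 54.2 and 60.1 as the lowest, median and highest of the control mice. No other gene of the 10 varied so little among control mice, with a coefficient of variation of 7.92%, and the groups were far apart. The means were 119.5 ± 7.02 (SD, n = 3) and 55.0 ± 4.35 FPKM (SD, n = 6), a 2.17-fold difference (log2 1.12, SE 0.101, limma adjusted p = 1.36e-05). The ratio of Fas to Tnfrsf1a in FPKM was above 1 in 3 of 3 anti-CD40 mice (1.32 to 1.75) and in 3 of 6 control mice (0.711 to 1.22).

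Tnfrsf10b (chr14:69767472-69784411, plus strand), the mouse TRAIL receptor with a death domain, was at 0.803, 0.596 and 0.675 FPKM in anti-CD40 mice and at 0.0324, 0.0637 and 0.163 as the lowest, median and highest of the control mice. The groups lay apart, and mouse 4 was again the highest control. Tnfrsf10b was higher by 2.18 (SE 0.262, limma adjusted p = 8.71e-05), with 129 reads against 27 (ratio 8.76, interval 5.75 to 13.8). Fas minus Tnfrsf10b in log2(FPKM + 0.1) was 7.25 ± 0.249 (SD, n = 3) in anti-CD40 mice and 8.31 ± 0.422 (SD, n = 6) in control mice (exact permutation p = 0.0238, adjusted over 3 differences 0.0357). This narrowing of the gap turned to a widening of 0.46 with a pseudocount of 1, which exceeds the level of Tnfrsf10b in every mouse. With quantile normalization the difference was -0.277 and did not pass (exact permutation p = 0.333). In FPKM without a pseudocount, Fas was 146 to 214 times Tnfrsf10b in anti-CD40 mice and 366 to 1690 times in control mice.

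**Figure D2:**
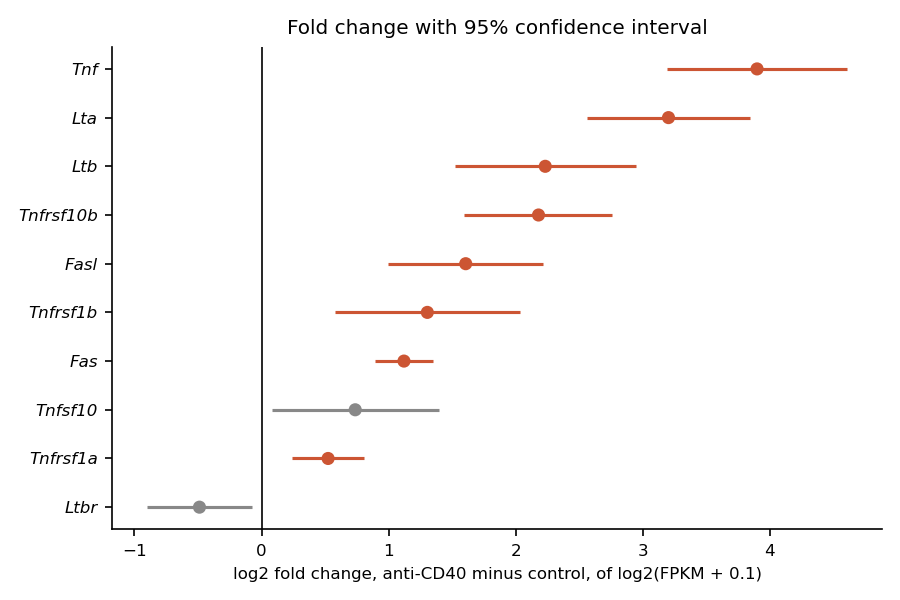
Log2 fold change (anti-CD40 over control) of each of the 10 genes on the log2(FPKM + 0.1) scale, with 95% intervals from limma, for 3 anti-CD40 and 6 control mice. Tnf was highest at 3.90 and Ltbr lowest at -0.49.

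By mean FPKM, the order in anti-CD40 mice was Ltbr, Fas, Tnfrsf1a, Tnfrsf1b, Tnf, Tnfsf10, Lta, Fasl, Tnfrsf10b and Ltb. In control mice it was Ltbr, Tnfrsf1a, Fas, Tnfrsf1b, Tnfsf10, Fasl, Tnf, Tnfrsf10b, Ltb and Lta. The ranges of Tnf and Tnfsf10 overlapped in anti-CD40 mice, as did those of neighbors among Lta, Fasl, Tnfrsf10b and Ltb. In control mice the ranges overlapped between Tnfrsf1a and Fas, between Tnfrsf1b and Tnfsf10, and between neighbors from Fasl to Lta. Lta stood at 10 in control mice and at 7 in anti-CD40 mice, Tnf at 7 and 5, and Fas at 3 and 2. Since neighbors at these places overlapped in control mice, the steps are a description only.

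The rest of the TNF superfamily was examined from lists of its ligands and receptors. Of 13 other ligands, 6 passed the filter on low values. Of these, 4 (66.7%) were higher, against 23.5% of all genes tested. The median log2 fold change of the 6 was 1.02, against 0.0056 over all genes. The 4 were Tnfsf13b (BAFF, 1.86) and Tnfsf13 (APRIL, 1.06), both B cell survival factors, and Tnfsf9 (4-1BBL, 1.15) and Tnfsf14 (LIGHT, 0.99), of which LIGHT also binds the lymphotoxin-beta receptor. With quantile normalization 2 of these were called higher and Eda was called lower. Of 23 other receptors, 18 were tested. Of these, 15 (83.3%) were higher and 1 (5.56%), Tnfrsf19, was lower (-1.40), against 23.5% and 21.7% of all genes. The highest were Tnfrsf13c (BAFF receptor, 4.32), Cd40 itself (4.10) and Tnfrsf9 (4-1BB, 3.85). Tnfsf9 and Tnfrsf9 passed the filter only through the anti-CD40 mice, with control means of 0.0543 and 0.0450 FPKM.

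The TRAIL decoy receptors, which bind TRAIL without a working death domain, were among the receptors called higher. Tnfrsf23 averaged 1.32 FPKM in anti-CD40 mice and 0.0944 in control mice (log2 3.00, limma adjusted p = 0.00014). Tnfrsf22 was higher by 1.22 (limma adjusted p = 0.00446) and the soluble decoy Tnfrsf11b by 1.18 (limma adjusted p = 0.0168). All 3 remained higher with quantile normalization and with the Saa genes left out. Tnfrsf22 and Tnfrsf23 passed the filter on low values only through the anti-CD40 mice, with control means of 0.0399 and 0.0944 FPKM.

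Downstream, genes of the TNF receptor complex and NF-kB branch moved unequally. Of 27 tested, 12 (44.4%) were higher and 3 (11.1%) lower, against 23.5% and 21.7% of all genes. The median log2 fold change was 0.38. The highest were Traf1 (4.80), Relb (3.28), and Tnfaip3 (A20, 3.11) and Tnip1 (3.01), which restrain NF-kB signaling. Birc3 (2.23) and Birc2 (1.63), ubiquitin ligases of the complex, and Traf3 (1.59) were also higher. The adaptors that bind TNFR1 first did not pass, with Tradd at 0.08 (limma adjusted p = 0.647), Ripk1 at 0.18 (limma adjusted p = 0.203) and Traf2 at 0.32 (limma adjusted p = 0.453). Kinase genes and their partners went both ways. Chuk (-0.87), Map3k7 (-0.77) and Tab1 (-0.62), which encodes a partner of the Map3k7 kinase, were lower, whereas Tab2 (0.51), another such partner, and Map3k14 (1.26), the kinase of the alternative NF-kB pathway, were higher. With the Saa genes left out, 21 were higher, including Tradd and Ripk1, and only Map3k7 was lower.

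In the death branch, 5 of 16 (31.2%) were higher and 1 lower, with a median of 0.15. The 37.5% called in either direction was below the 45.1% among all genes. The genes called higher were Ripk3 (2.27) and Mlkl (1.84), which act in necroptosis, Apaf1 (2.20) and Bax (1.603), which act in the mitochondrial pathway, and Bid (0.81), which encodes a caspase-8 substrate. Other genes of the mitochondrial pathway did not pass, with Bak1 at 0.29 (limma adjusted p = 0.156), Cycs at -0.30 (limma adjusted p = 0.147) and Diablo at -0.12 (limma adjusted p = 0.328). The genes of the death-inducing complex did not pass: Fadd at 0.15 (limma adjusted p = 0.497), Casp8 at 0.18 (limma adjusted p = 0.577) and its inhibitor Cflar at -0.46 (limma adjusted p = 0.132). Casp9 was lower by this fit (-0.42, limma adjusted p = 0.0269) and was at -0.06 with the Saa genes left out (limma adjusted p = 0.703). That scaling gave 8 higher, Fadd included, and 0 lower.

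Of 9 genes for TNF mRNA decay and shedding, 4 (44.4%) were higher and 0 lower, with a median of 0.42. Of all genes tested, 23.5% were higher and 45.1% were called in either direction, so this share of called genes was near that of all genes. Adam17, the protease that releases TNF and its receptors from the membrane, was higher by 0.79 (limma adjusted p = 0.000678), and its partners Rhbdf2 and Frmd8 by 1.38 and 0.78. Elavl1, which binds AU-rich RNA, was higher by 0.54. Zfp36 (tristetraprolin), which drives decay of Tnf mRNA, was at 0.04 (limma adjusted p = 0.88), and the ADAM17 inhibitor Timp3 at 0.15 (limma adjusted p = 0.41).

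**Figure D3:**
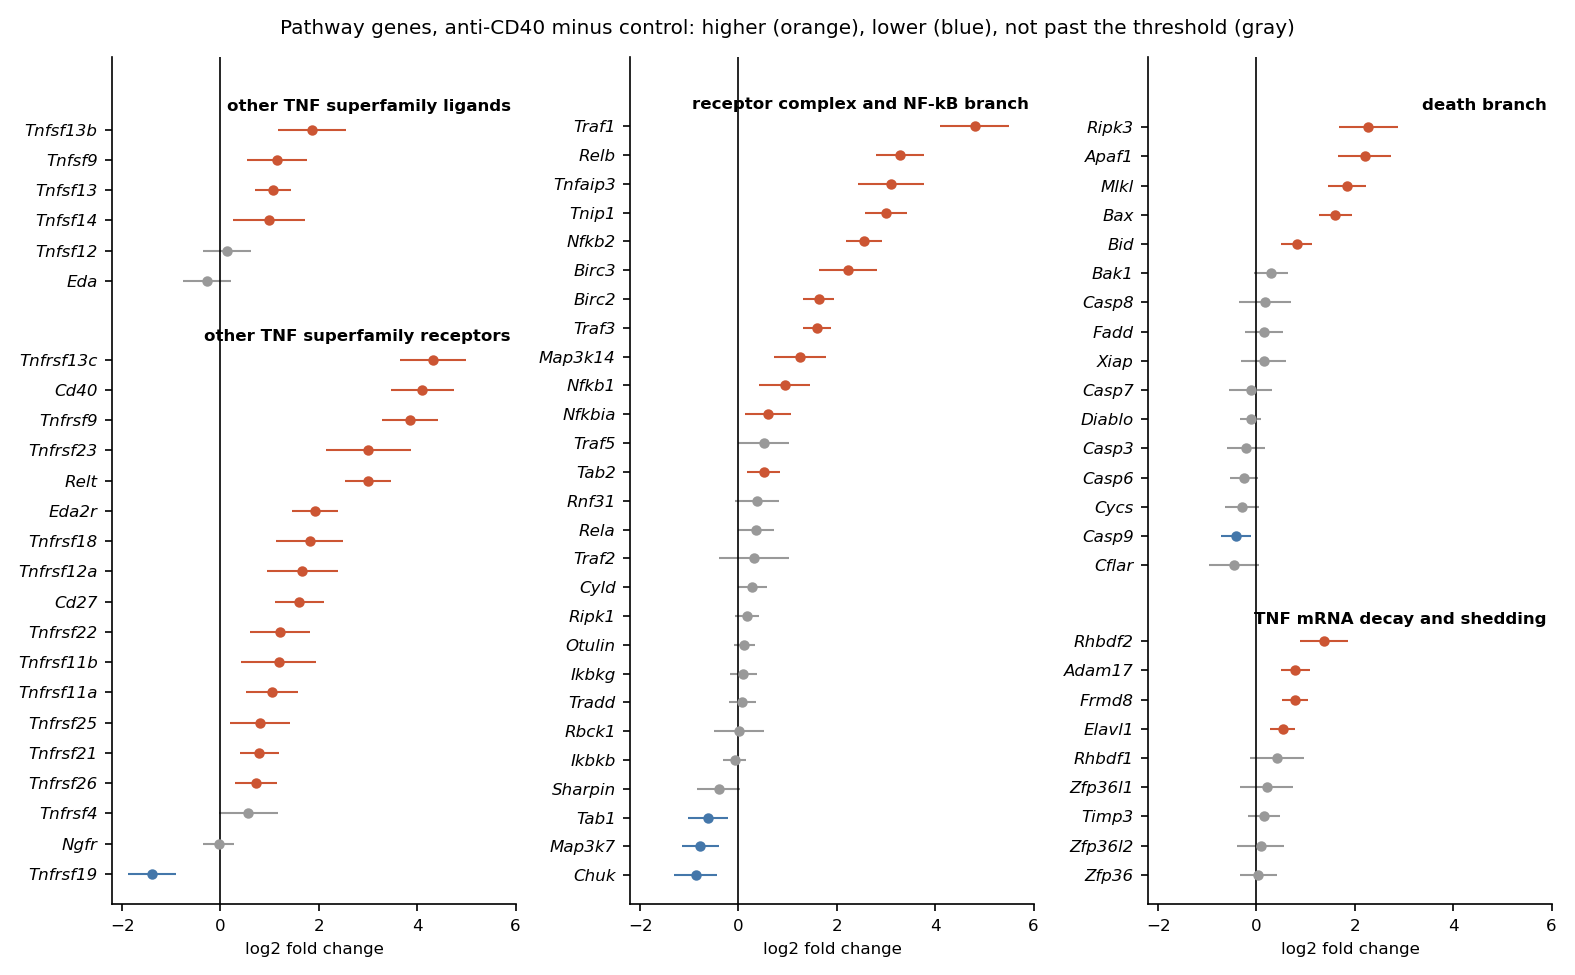
Log2 fold change (anti-CD40 over control) with 95% intervals for pathway genes on the log2(FPKM + 0.1) scale, in 3 panels, for 3 anti-CD40 and 6 control mice. Traf1 was highest at 4.80, while Tradd, Ripk1, Fadd and Casp8 lay near 0.

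Markers of other cells moved with the same groups. All 8 neutrophil markers tested were higher, and their summed level was 4220 to 5210 FPKM in anti-CD40 mice and 18.4 to 156 in control mice. Of 8 monocyte and macrophage markers, 6 were higher and 1 lower (754 to 1040 against 73.1 to 189 FPKM), whereas all 6 Kupffer cell markers were lower (39.0 to 50.7 against 285 to 456 FPKM). Among lymphocyte lists, 7 of 8 T cell markers were higher (9.3 to 12.2 against 2.86 to 4.71 FPKM), 8 of 8 NK and cytotoxic markers (69.5 to 98.2 against 3.97 to 14.4 FPKM) and 5 of 5 B cell markers (25.7 to 36.7 against 1.84 to 7.18 FPKM). Of the B cell list, Pax5 was at 0.01 in all control mice and was not tested. Prf1 of the NK and cytotoxic list fell under the filter and was not tested either. Its groups overlapped, at 0.01 to 0.156 FPKM in anti-CD40 mice and 0.01 to 0.0317 in control mice. Of 5 dendritic cell markers, 4 were higher (7.94 to 9.07 against 1.17 to 2.8 FPKM). Only 1 was higher without anti-CD40 mouse 2, and 2 were without anti-CD40 mouse 5 or 9 or control mouse 7 or 8. Xcr1 of this list was at -0.05 (limma adjusted p = 0.896). Single genes made up most of several sums in anti-CD40 mice, with means of 3316 FPKM for S100a8, 567.7 for Plac8, 72.27 for Gzma and 6.29 for Ccr7. Cxcr2, Ngp, Mmp8, Cd8a, Eomes, Cd79a and Flt3 passed the filter only through the anti-CD40 mice. Without anti-CD40 mouse 2, 3 of the T cell markers were higher.

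Of 8 hepatocyte markers, 7 were lower and 1 higher (15500 to 18300 against 33500 to 60100 FPKM). Of 5 stellate cell markers, 3 were lower (200 to 226 against 264 to 383 FPKM), and of 6 endothelial markers 2 were higher and 2 lower (77.0 to 87.4 against 80.8 to 107 FPKM). For the endothelial list, 1 was higher without anti-CD40 mouse 5 or 9, and 1 was lower without anti-CD40 mouse 2 or control mouse 3 or 11. Control mouse 4 was the highest control for Lta, Fasl, Tnfsf10 and Tnfrsf10b, and the lowest for Tnfrsf1a, Tnfrsf1b and Ltbr. It was also the highest control for the neutrophil, T cell, NK, B cell, dendritic cell and stellate cell sums. For the hepatocyte and pancreatic acinar sums it was the lowest control, and the acinar sum in control mice was nearly all Cela1. The part of these cell types in the values of the 10 genes was not tested.

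**Figure D4:**
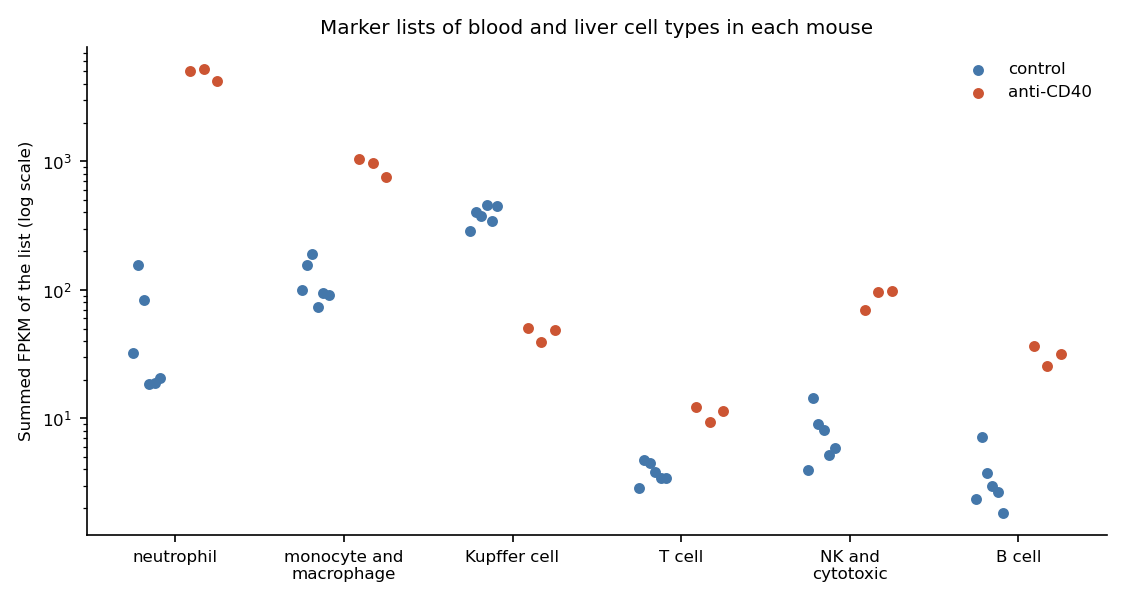
Summed FPKM of cell type marker lists in each mouse on a log axis, for 3 anti-CD40 and 6 control mice. The lists shown are neutrophil, monocyte and macrophage, Kupffer cell, T cell, NK and cytotoxic, and B cell. The neutrophil sum was 4220 to 5210 in anti-CD40 mice and 18.4 to 156 in control mice, and the Kupffer cell sum was lower in every anti-CD40 mouse.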

How the data were processed

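Liver mRNA of 9 mice was measured by 3′ sequencing. Per the study's methods and processing notes, the authors aligned reads to mm10 with STAR and computed FPKM with Cufflinks and CuffDiff. The deposited table holds 1 FPKM column per mouse and a floor of 0.01. It keeps no read totals, so depth is unknown apart from the reads recovered below. Of 24341 gene names, 15 with a failed estimate were left out.

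The 10 genes and all lists were chosen with earlier results of these data known. FPKM was tested as log2(FPKM + 0.1) with limma 3.58.1 in R 4.3.3 (lmFit, eBayes with trend, 2-sided) over 13807 genes with mean FPKM of at least 0.1, calling an adjusted p under 0.05. Single values and differences within a mouse were tested by exact permutation over 84 splits (smallest p 0.0238). The scripts were tested on simulated data. Whole reads were recovered where values were whole multiples within 0.05 (73.2% of 4803 low genes in every mouse), for 5 of the 10 genes. Relative depths were used for ratios, with exact intervals that hold counting error only. No count test was run.

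All 10 genes were named. From each list, up to 4 called genes with the largest log2 fold changes and no overlap were named, plus binding partners. Traf3, Birc2, Birc3, Tnfsf14, Bid, Chuk, Map3k7, Tab1, Tab2, Map3k14, Bak1, Cycs, Diablo, Eda and Casp9 were named after their values were seen. So were Tnfrsf19, Xcr1, Pax5, Prf1, Cxcr2, Ngp, Eomes, Cd79a and the pancreatic acinar genes. A ranking of genes by likeness to Tnf was computed and is not reported, since the groups separate. The neutrophil marker Ly6g was not analysed here. Alternatives were other pseudocounts, filters and scalings, and leaving out each mouse. Upstream sequences are from the RefSeq promoter table (GRCm38.p6).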

Additional observations from a re-analysis of the deposited data

Results flagged for a closer look

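Among 13 groups of control values examined, 2 held a highest mouse far from the others, where about 1 in 20, or 0.65, arises by chance. For Ltb, control mouse 7 was at 0.163 FPKM, and its gap to the next control mouse was 0.657 of the range of the control mice. This value is 3 reads, and without mouse 7 the log2 fold change of Ltb was 2.41 in place of 2.23 (limma adjusted p = 0.000104). For Tnfrsf1b, control mouse 12 was at 8.06 FPKM, and its gap was 0.635 of the range. Without mouse 12 the log2 fold change was 1.53 in place of 1.31.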

How the results depend on the processing

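The 8 called genes of the 10 kept their direction and stayed past the threshold under every alternative that could be fitted, from 3.72 to 4.03 for Tnf, 2.89 to 3.44 for Lta, 2.11 to 2.44 for Ltb, 1.501 to 1.75 for Fasl, 0.46 to 0.59 for Tnfrsf1a, 1.17 to 1.53 for Tnfrsf1b, 1.08 to 1.16 for Fas and 2.08 to 2.30 for Tnfrsf10b when 1 mouse was left out. Lta, Ltb, Fasl and Tnfrsf10b fell under the filter of a mean of at least 1 FPKM and were not tested with it. Pseudocounts of 1 and 0.01 moved the size for genes at low level, from 2.04 to 4.56 for Tnf and from 1.02 to 5.13 for Lta. Leaving out 1 mouse gave 0.49 to 0.88 for Tnfsf10 (limma adjusted p = 0.0331 to 0.278) and -0.60 to -0.43 for Ltbr (limma adjusted p = 0.00385 to 0.162). With the Saa genes left out and the rest rescaled, Tnfsf10 was at 1.09, 5592 genes were higher and 1649 lower, the NF-kB branch had 21 higher and 1 lower, and the death branch 8 higher and 0 lower. With a mean of at least 1 FPKM, 1 other ligand was higher, and 6 other receptors were higher and 0 lower. With quantile normalization, 2 other ligands were higher and 1 lower, and 2 other receptors were lower. Leaving out 1 mouse gave 2539 to 3539 genes higher and 2336 to 3269 lower, 3 to 4 other ligands and 13 to 15 other receptors higher, 10 to 13 higher and 2 to 4 lower in the NF-kB branch, and 0 to 1 lower in the death branch. Among marker lists, a mean of at least 1 FPKM left 2 T cell, 3 NK, 3 B cell and 1 dendritic cell marker higher. Dendritic cell markers called higher were 1 with quantile normalization and 2 with no filter, and endothelial markers called lower were 1 with no filter or with the Saa genes left out. There were 0 hepatocyte markers higher with no filter, and 1 stellate and 1 acinar marker higher with the Saa genes left out. A pseudocount of 0.01 also gave 1 acinar marker higher, and without anti-CD40 mouse 9, 1 stellate marker was higher. Fas minus Tnfrsf10b was -1.06, and was 0.46 with a pseudocount of 1, -2.03 with 0.01 and -0.28 with quantile normalization (exact p = 0.333), and -1.19 to -0.95 without 1 mouse. Ltb minus Tnf was -0.81 with a pseudocount of 0.01, and -1.92 to -1.30 without 1 mouse. Tnfrsf1b minus Tnfrsf1a ranged from 0.68 to 0.99 without 1 mouse. Without an anti-CD40 mouse the smallest exact p is 0.0714, so those are values with no test. Where no value shows it, the cause was not tested. No paired analysis was possible because the groups share no mouse numbers. Depth limits Lta and Ltb most, with 3 and 5 reads over all control mice.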

Other observations

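Pancreatic acinar markers, which mark a tissue next to the liver at dissection, varied widely between mice. None of the 7 passed the test in limma, although 2 were higher at an unadjusted p under 0.05. Their summed level was 657 FPKM in anti-CD40 mouse 5, 27.4 and 31.4 FPKM in anti-CD40 mice 2 and 9, and 70.2 to 190 FPKM in control mice. The control sums were nearly all Cela1, at 69.29 to 188.5 FPKM. Control means of Cpa1, Cel, Pnlip, Ctrb1 and Prss2 were only 0.0137 to 0.0925 FPKM, so these sums do not compare acinar tissue between the groups. The count depended on single mice, since 5 of the 7 were called higher without anti-CD40 mouse 2 and 2 were called lower without anti-CD40 mouse 5. Without mouse 5 the 8 genes called higher were all still called higher.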
